A study of Mus musculus with 56 samples.

Results

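The cortical and medullary thymic epithelial cells (cTECs and mTECs) of regenerating maternal thymi were compared at D12, the 12th day after parturition. The comparison took the 3 cTEC samples and the 3 mTEC samples labelled D12, 6 of the 56 samples of the series. All 6 came from B6.SJL females (B.6SJL-Ptprca Pep3b/BoyJ-CD45.1) that had been mated with BALB/cJ males and whose pups had been taken away at birth, so none of them was nursing. Their age is not given in the sources used here. A sample was RNA of cells sorted from 1 mouse after digestion of the thymic stroma, TECs being EpCAM+ CD45- cells, cTECs without and mTECs with binding of UEA1, a plant lectin that recognises fucose on the surface of medullary cells. A gate that defines cTECs only by the absence of a label collects every EpCAM+ CD45- cell that does not bind the lectin. For reference, the same cell types were read in non-pregnant controls (NPC, 3 and 3) and on day 18 of gestation (D-2, 3 and 3), in females of the same strain.

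The thymus makes T cells from blood-borne precursors, and its epithelium divides that work between compartments. In the cortex, cTECs attract the precursors with chemokines, commit them to the T lineage through Notch ligands, and display peptides cut by proteases that few other cells have, which lets immature thymocytes be positively selected. In the medulla, mTECs call the selected thymocytes in with other chemokines and show them proteins that otherwise belong to peripheral tissues, a process known as promiscuous gene expression that depends in part on AIRE and FEZF2. Medullary maturation is driven by the NF-kB pathway through RANK, CD40 and the lymphotoxin-β receptor.

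Levels are given as FPKM, which scales fragments to transcript length and library size, in the order of replicates 1, 2 and 3 of each cell type. Differences are log2(cTEC) minus log2(mTEC) from limma-voom on the estimated counts with the replicate number as a block, so that a positive value means higher in cTECs. A gene was called when the difference was 2-fold or more and its p, adjusted by Benjamini and Hochberg's method, did not exceed 0.01. Unless another contrast is named, adjusted p values come from that limma-voom fit over 18796 genes.

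The 6 libraries held between 6470058 and 41988256 estimated counts. The cTEC libraries were more alike (Pearson's r of log2 CPM 0.936 to 0.954 over the tested genes) than the mTEC libraries (r 0.746 to 0.804), and r between a cTEC and an mTEC library was 0.7305 to 0.8252, the highest above every value among mTECs. When all libraries were drawn down to 6470030 counts, genes with only 1 or 2 counts made up 3.23% and 3.02% of the genes detected in mTEC replicates 1 and 3, against 7.38% to 15.5% in the other 4 libraries. The same 2 mTEC libraries were listed at 0 for 38 and 51 genes whose median over the other 5 libraries was at least 10 FPKM (5 to 18 genes in the other 4 libraries), among them the mitochondrial genes *mt-Nd3* and *mt-Atp6*, so a 0 in them is read below only as a listed 0. In bulk RNA of sorted populations, fewer cells of a kind and less RNA per cell cannot be told apart.

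The markers that define the compartments separated all cTEC samples from all mTEC samples. *Psmb11*, which encodes the β5t subunit of the thymoproteasome, the particle characteristic of cTECs, lies at chr14:54621433-54629556 (+ strand, GRCm38). Its level was 397, 249 and 296 in cTECs and 32.0, 6.80 and 10.6 in mTECs. Every cTEC value was above every mTEC value, and mTEC replicate 1 was the highest of the mTECs (log2 difference 4.59, SE 0.21, adjusted p = 1.4e-09). *Prss16*, the thymus-specific serine protease at chr13:22002173-22009742 (- strand), stood at 3065, 2589 and 2551 in cTECs and 179, 60.1 and 63.1 in mTECs, again with mTEC replicate 1 on top of its group (log2 difference 5.14, SE 0.16, adjusted p = 2.7e-11). *Ly75* (DEC-205, an endocytic receptor used as a cTEC surface marker) reached 103, 85.0 and 82.7 in cTECs and 14.9, 6.53 and 7.27 in mTECs (log2 difference 3.44, SE 0.17, adjusted p = 2.6e-09). *Enpep*, the gene of the cTEC surface antigen Ly51, followed the same order with 41.8, 44.7 and 40.3 against 6.84, 3.07 and 4.08 (log2 difference 3.77, SE 0.28, adjusted p = 1.6e-07).

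On the medullary side, *Aire*, the autoimmune regulator at chr10:78030022-78043610 (- strand), measured 2.63, 6.39 and 5.47 in cTECs and 151, 145 and 149 in mTECs. The mTEC values lay close together and far above every cTEC value (log2 difference -5.13, SE 0.33, adjusted p = 3.3e-08). *Fezf2*, the other known transcriptional driver of tissue-restricted genes, read 26.4, 28.1 and 38.1 in cTECs and 180.1, 189 and 188 in mTECs without overlap (log2 difference -2.46, SE 0.14, adjusted p = 1e-08). *Ccl21a*, a chemokine that draws positively selected thymocytes into the medulla, was the most abundant of the 6 defining markers, with 2754, 4193 and 5351 in cTECs and 10632, 8446 and 10219 in mTECs. Its groups did not overlap either, but the gap was the smallest of the 6 (log2 difference -1.20, SE 0.12, adjusted p = 5e-06), and *Ccl21a* shares near-identical copies whose reads the authors' counting may have split.

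Of the 13 genes in the list of cTEC markers 11 were higher in cTECs and none in mTECs, where 3.64% and 5.59% of all 18796 tested genes were called higher in cTECs and in mTECs, respectively. The median difference of that list was 3.48, against -0.03 over all tested genes. The same shares of all tested genes, 3.64% and 5.59%, apply to every list count below. Of the 14 mTEC markers 11 were higher in mTECs and none in cTECs (median -2.35). The members without a call were *Il7* and *Bmp4* among the cTEC markers and *Cd86*, *Krt5* and *Cldn3* among the mTEC markers. *Il7*, the main survival factor of immature thymocytes, was found in both compartments at 107, 90.0 and 106 and 100.3, 66.0 and 79.9 (log2 difference 0.36, adjusted p = 0.033).

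Within a cell type the replicates differed in how much of the opposite compartment's markers they held. In mTEC replicate 1 *Psmb11* stood at 10.2% of its mean in cTECs, against 2.17% and 3.37% in the others, and *Ly75* at 16.5% against 7.23% and 8.05%. Of the 13 cTEC markers 12 were highest in mTEC replicate 1 among the mTECs. In cTECs, *Aire* was at 1.77% to 4.31% of its mTEC mean, *Spib* at 6.79% to 14.1%, *Fezf2* at 14.2% to 20.6% and *Ccl21a* at 28.2% to 54.8%, and 13 of the 14 mTEC markers were lowest in cTEC replicate 1. Whether these levels come from cells of the other type in the sort was not tested.

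**Figure D1:**
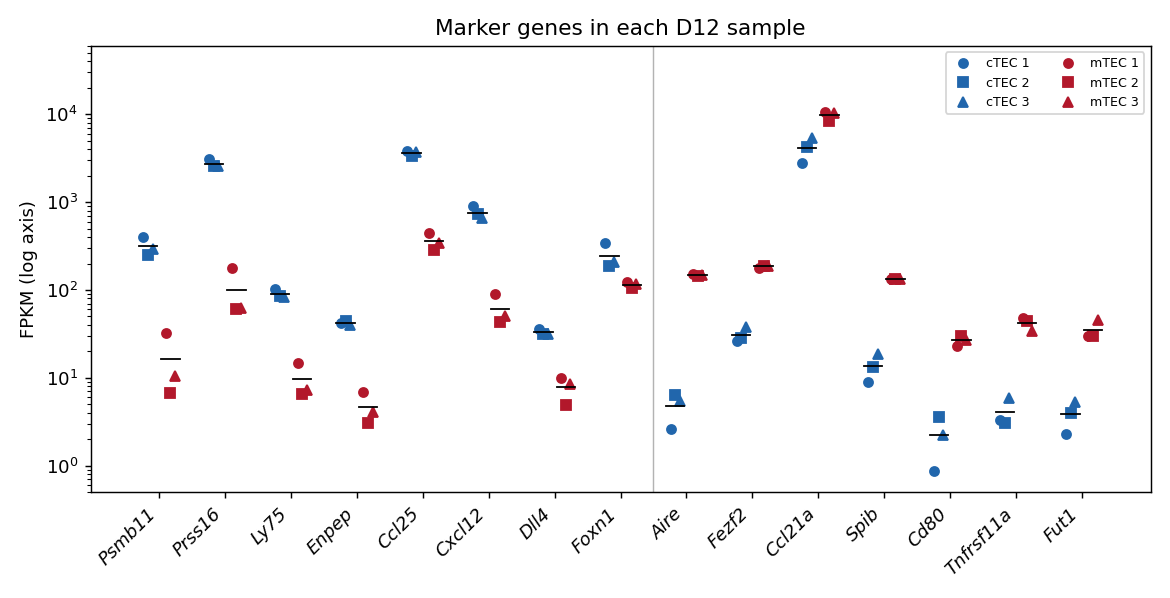
FPKM (log axis) of 15 genes in each D12 sample, cTECs in blue and mTECs in red, with 1 symbol per replicate number and a black line at the mean of 3. In the 8 genes left of the vertical line every cTEC value is above every mTEC value, with log2 differences in the limma-voom fit from 1.16 (*Foxn1*) to 5.14 (*Prss16*), and in the 7 genes on the right every mTEC value is above every cTEC value.

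The start regions of *Psmb11*, *Cxcl12*, *Aire* and *Csn2* are shown, the last from the tissue-restricted genes below. These genes were chosen because their levels were far apart, with 2 higher in cTECs and 2 in mTECs. A further reason was that GACGC, the core recognised by FOXN1, and TATANA, the core promoter element bound by TBP, were counted in all promoters. Each start region is the stretch of 250 bases before the transcription start, in RefSeq (GRCm38.p6). It is written 5′ to 3′ along the gene's own strand, with matches to GACGC or TATANA on either strand in capitals. A match on the other strand reads GCGTC or TNTATA. No match to one motif overlapped a match to the other in these 4 sequences.
Psmb11 (chr14:54625060-54625309, + strand): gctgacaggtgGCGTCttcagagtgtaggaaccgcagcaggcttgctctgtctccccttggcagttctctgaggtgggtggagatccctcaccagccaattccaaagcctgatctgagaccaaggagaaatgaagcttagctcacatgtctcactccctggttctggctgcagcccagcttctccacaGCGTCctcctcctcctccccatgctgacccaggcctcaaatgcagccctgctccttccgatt
Cxcl12 (chr6:117168285-117168534, + strand): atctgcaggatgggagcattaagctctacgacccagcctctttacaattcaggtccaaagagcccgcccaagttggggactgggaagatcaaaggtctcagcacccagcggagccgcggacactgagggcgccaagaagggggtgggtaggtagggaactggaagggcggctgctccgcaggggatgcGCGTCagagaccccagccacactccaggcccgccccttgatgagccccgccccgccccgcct
Aire (chr10:78043611-78043860, - strand): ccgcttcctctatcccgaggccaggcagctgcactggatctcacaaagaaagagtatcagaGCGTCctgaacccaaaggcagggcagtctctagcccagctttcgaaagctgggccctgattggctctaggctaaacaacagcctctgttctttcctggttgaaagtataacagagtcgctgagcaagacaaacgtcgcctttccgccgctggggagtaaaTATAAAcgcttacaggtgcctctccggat
Csn2 (chr5:87699426-87699675, - strand): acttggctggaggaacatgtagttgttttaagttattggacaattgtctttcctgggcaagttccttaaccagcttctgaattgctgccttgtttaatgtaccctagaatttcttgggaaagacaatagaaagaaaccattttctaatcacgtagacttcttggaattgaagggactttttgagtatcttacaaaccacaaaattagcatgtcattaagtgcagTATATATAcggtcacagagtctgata

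*Psmb11* held 2 matches to GACGC and *Cxcl12* 1, and neither held TATANA. *Aire* held 1 match to each motif, and its TATAAA lay close before the start. *Csn2*, the gene of β-casein, a milk protein, held an overlapping pair of TATANA matches close before the start, and only 2 CG dinucleotides. Of the 684 genes called higher in cTECs 519 matched a RefSeq promoter, with 709 start regions, and of the 1050 called higher in mTECs 760 did, with 941 start regions. GACGC was present in 37.5% of the cTEC-high start regions, 20.7% of the mTEC-high ones and 33.3% of the 16329 start regions of tested genes. TATANA was present in 11.4%, 20.2% and 14.2%, respectively. The median number of CG dinucleotides was 14, 7 and 13 per region. GACGC itself holds a CG dinucleotide, and the part of CG number in its shares was not tested. These matches are counts of letters, not of bound sites.

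Across all tested genes, 1734 (9.23%) were called, 684 (3.64%) higher in cTECs and 1050 (5.59%) in mTECs. The FPKM values of the 3 cTEC and 3 mTEC samples did not overlap for 35.2% of the tested genes, with cTECs above for 14.5% and mTECs above for 20.7%. Genes called higher in cTECs had a median difference of 1.46 and a median level of 35.8 FPKM in cTECs and 13.6 in mTECs, so most were expressed on both sides. Genes called higher in mTECs had a median difference of -2.64, with 16.5 FPKM in mTECs and 2.46 in cTECs. A mean under 1 FPKM on the lower side was found for 334 of the 1050 mTEC-high genes and 23 of the 684 cTEC-high genes. Without replicate 2 of both cell types, 352 and 438 genes were called, and DESeq2 called 1039 and 2143. Of the 1734 called genes 78 had overlapping FPKM values, 50 of them called higher in cTECs.

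**Figure D2:**
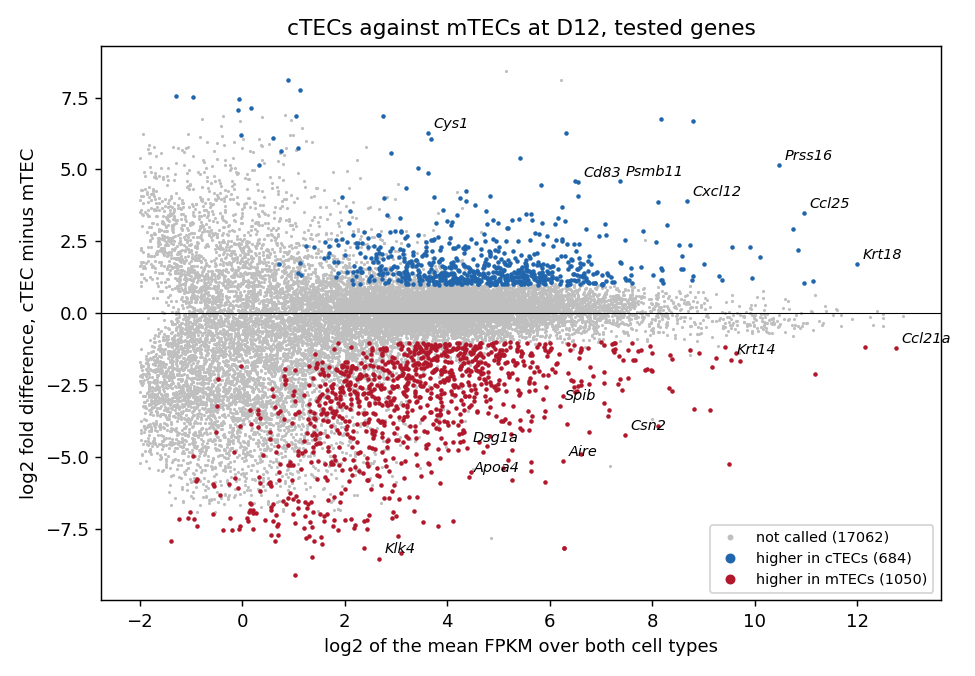
Log2 difference between cTECs and mTECs (y axis, positive when higher in cTECs) against the log2 of the mean FPKM over both cell types (x axis), 1 point per tested gene. The 684 genes called higher in cTECs are in blue, the 1050 called higher in mTECs in red and the other 17062 in grey, and the largest negative differences belong to genes of low mean level.

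Among genes with a mean of at least 10 FPKM in cTECs and no overlap, the 12 with the largest differences were *Gm13629*, *Cys1*, *Prss23*, *Rapgef3*, *Inmt*, *Prss16*, *Mtcl1*, *Snhg11*, *Psmb11*, *Cd83*, *Syngr1* and *Shisa6*. *Cd83*, a surface protein of cTECs that protects MHC class II from degradation and is needed for CD4 T cell selection, was measured at 209.9, 148 and 180.3 in cTECs and 10.9, 8.28 and 3.15 in mTECs (log2 difference 4.55, SE 0.28, adjusted p = 3e-08). *Syngr1*, a synaptic vesicle protein, was at 122, 106 and 98.1 and 0.97, 7.90 and 9.16 (log2 difference 4.45, SE 0.34, adjusted p = 2.2e-07). *Inmt*, an N-methyltransferase of indole amines, was at 88.9, 65.3 and 95.4 in cTECs and 0, 1.97 and 5.19 in mTECs (log2 difference 5.39, SE 0.90, adjusted p = 0.00047). *Mtcl1*, a microtubule crosslinker, was at 26.1, 19.3 and 17.9 and 0.35, 0.60 and 0.33 (log2 difference 5.05, SE 0.58, adjusted p = 1.3e-05). *Rapgef3* (EPAC1, a cAMP-activated exchange factor for RAP1) read 12.1, 21.2 and 9.64 against 0, 1.49 and 0.70 (log2 difference 5.56, SE 1.11, adjusted p = 0.0019), and it lies in a run of 4 neighbouring tested genes, *Endou*, *Rapgef3*, *Slc48a1* and *Hdac7* (chr15:97711015-97844502), that were all called higher in cTECs. *Gm13629* is annotated as an antisense RNA over *Scn9a*, which itself was called higher in mTECs (log2 difference -4.94, adjusted p = 0.00859), and the strand setting of the counting is not given in the sources used here. *Cys1*, *Prss23*, *Inmt*, *Rapgef3*, *Shisa6* and *Gm13629* were listed at 0 in at least 1 mTEC library.

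The 12 genes of the same rule on the mTEC side were *Klk4*, *Retnla*, *Gm10591*, *Ccl21b*, *Csn1s2a*, *I830127L07Rik*, *Pdyn*, *Gm6637*, *Cryaa*, *Amtn*, *Pgc* and *Oas1e*. Apart from *Ccl21b* and *Gm10591* in replicate 2, they were at or close to 0 in cTECs, and several are textbook products of peripheral organs. *Pgc*, the stomach proenzyme pepsinogen C, was at 0, 0 and 1.15 in cTECs and 23.3, 36.1 and 43.6 in mTECs (log2 difference -7.20, SE 1.40, adjusted p = 0.0016). *Cryaa*, the lens protein αA-crystallin, was at 0.27, 0.28 and 0 and 36.1, 12.9 and 19.8 (log2 difference -7.24, SE 1.33, adjusted p = 0.001). *Amtn* (amelotin) and *Klk4*, both of enamel-forming cells, reached 9.91, 8.65 and 12.6 and 11.1, 13.8 and 13.2 in mTECs and at most 0.15 in cTECs. *Pdyn*, the precursor of the opioid peptides dynorphins, reached 7.38, 9.01 and 16.1 in mTECs and at most 0.09 in cTECs. *Retnla* and the milk protein gene *Csn1s2a* were listed at 0 in all 3 cTEC libraries, and with 3 counts per library as the floor they were at least 41.0-fold and 33.7-fold higher in mTECs. *Ccl21b* and *Gm10591* carried identical values, and with *Ccl21a* they form a family of near-identical copies, so that their levels are uncertain and without the replicate block they were not called (limma-voom adjusted p = 0.0779 for both). The levels of the pseudogenes *Gm6637* and *I830127L07Rik* are also uncertain. 4 kallikrein genes side by side, *Klk7*, *Klk6*, *Klk5* and *Klk4* (chr7:43811294-43885804), were all called higher in mTECs. So were 4 neighbouring *Skint* genes, *Skint7*, *Skint1*, *Skint4* and *Skint3* (chr4:111972923-112300468), of an epithelial gene family with a part in selecting γδ T cells.

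Chemokines were divided between the compartments. Of 18 tested chemokine genes 2 were higher in cTECs and 9 in mTECs, and the median was -2.21. *Ccl25*, the ligand of CCR9 that recruits precursors, was the most abundant gene of the cTEC markers, at 3818, 3391 and 3719.7 in cTECs and 446, 283 and 340.3 in mTECs (log2 difference 3.48, SE 0.08, adjusted p = 1.1e-12). *Cxcl12*, the ligand of CXCR4, was at 896, 728 and 652 and 90.1, 42.8 and 50.2 (log2 difference 3.89, SE 0.13, adjusted p = 3e-11). No value of either gene overlapped between cell types. On the mTEC side, *Ccl19*, like *Ccl21a* a ligand of CCR7, was at 12.6, 45.1 and 31.1 in cTECs and 171, 186 and 121 in mTECs (log2 difference -2.52, SE 0.32, adjusted p = 3.8e-05). *Cxcl9*, a ligand of CXCR3, was at 4.17, 2.67 and 15.8 and 81.6, 96.4 and 96.8 (log2 difference -3.72, SE 0.31, adjusted p = 4.8e-07). *Ccl5*, *Ccl9*, *Ccl20*, *Ccl22*, *Cxcl13* and *Cxcl14* were also called higher in mTECs, with differences from -3.44 (*Cxcl14*) to -1.45 (*Ccl22*). Of these *Ccl22* and *Ccl9* were not called without the replicate block (limma-voom adjusted p = 0.0244 and 0.0103). *Xcl1*, which attracts XCR1+ dendritic cells, was listed at 0 in the 3 cTEC libraries and at 11.7, 4.99 and 3.37 in mTECs, with an adjusted p of 0.014 that missed the threshold.

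Of 17 tested Notch pathway genes 4 were higher in cTECs and 4 in mTECs, and 3 of the 4 cTEC-high genes encode ligands. *Dll4*, the ligand that commits precursors to the T lineage, was at 36.4, 31.7 and 31.3 in cTECs and 10.1, 4.85 and 8.42 in mTECs (log2 difference 2.25, SE 0.22, adjusted p = 2.9e-06). *Jag2* was at 86.2, 75.5 and 70.1 and 29.4, 19.4 and 27.7 (log2 difference 1.70, SE 0.13, adjusted p = 3.2e-07), and *Dll1* at 13.7, 16.8 and 15.1 and 12.1, 8.06 and 9.27 (log2 difference 1.76, SE 0.28, adjusted p = 0.00032). For *Dll1* the difference in counts was larger than that in FPKM, which also depends on the transcript lengths assigned. The groups of all 3 ligands were apart, while *Jag1* read 9.85, 10.4 and 11.8 and 11.3, 13.0 and 14.1 (adjusted p = 0.45). Among receptors, targets and modifiers, *Notch3* (log2 difference -1.37), *Heyl* (-1.10), *Nrarp* (-1.68) and *Mfng* (-3.22) were higher in mTECs and the target gene *Hey1* in cTECs (1.54). Without the replicate block *Notch3*, *Heyl* and *Mfng* were no longer called (limma-voom adjusted p = 0.0189, 0.012 and 0.0102). The target gene *Hes1* was at 70.5, 54.5 and 77.9 and 79.3, 51.4 and 71.3 (adjusted p = 0.5).

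Of 12 tested cytokines and growth factors that act on thymocytes, 2 were higher in cTECs and 2 in mTECs (median -0.15). *Kitl* (stem cell factor) was at 24.4, 26.4 and 18.8 in cTECs and 21.5, 2.31 and 6.83 in mTECs. It was called (log2 difference 2.61, SE 0.30, adjusted p = 1.5e-05), although mTEC replicate 1 lay inside the range of the cTECs. *Il33* was at 22.9, 28.6 and 21.8 and 2.17, 6.39 and 4.62, without overlap (log2 difference 2.21, SE 0.35, adjusted p = 0.00027). The insulin-like growth factors *Igf1* (log2 difference -1.05, SE 0.23, adjusted p = 0.0039) and *Igf2* (log2 difference -3.19, SE 0.53, adjusted p = 0.00042) were higher in mTECs. *Flt3l* and *Il15* were not called.

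Genes of antigen processing were called in both directions. Of 11 proteasome genes 3 were higher in cTECs and 1 in mTECs. Besides *Psmb11*, these were the immunoproteasome subunits *Psmb9*, at 422, 442 and 362 in cTECs and 159, 150.0 and 188 in mTECs (log2 difference 1.57, SE 0.12, adjusted p = 3.4e-07), and *Psmb10*, at 978, 869 and 821 and 384, 422 and 288 (log2 difference 1.31, SE 0.10, adjusted p = 1.7e-07). The remaining β5 subunits, *Psmb5* (constitutive) and *Psmb8* (immunoproteasome), that compete with *Psmb11* for the same place in the particle differed by 0.51 and -0.14 and were not called. The activator subunit *Psme1* was higher in mTECs, at 96.1, 143 and 151 and 245, 318 and 308 (log2 difference -1.30, SE 0.13, adjusted p = 2.8e-06).

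Of 13 lysosomal protease genes 2 were higher in cTECs and 4 in mTECs, and the called cathepsins lay on both sides. *Ctsl* (cathepsin L, which cuts the class II invariant chain in cTECs) was at 2669.6, 3061 and 3146 in cTECs and 891, 572 and 675 in mTECs (log2 difference 2.19, SE 0.09, adjusted p = 6.1e-10). *Ctss* (cathepsin S, with that task in most other antigen-presenting cells) was at 5.14, 9.85 and 15.4 and 44.9, 79.7 and 100.3 (log2 difference -2.76, SE 0.25, adjusted p = 1.7e-06). *Ctsh*, at 11.3, 23.1 and 32.2 and 144, 165 and 168 (log2 difference -2.72, SE 0.25, adjusted p = 1.9e-06), and *Ctsz*, at 21.2, 34.4 and 34.7 and 131, 193 and 173 (log2 difference -2.36, SE 0.16, adjusted p = 6.6e-08), were likewise higher in mTECs, as was *Ctsc* (log2 difference -1.70, SE 0.31, adjusted p = 0.00096). The legumain gene *Lgmn* was at 11.4, 14.6 and 16.8 and 16.8, 18.5 and 16.0 and not called. The FPKM sum of the 13 genes, which *Prss16* and *Ctsl* dominate, was 6605 to 6739 in cTECs, against 1957 to 2168 in mTECs.

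Among genes of antigen presentation by MHC, 1 of 12 for class I and 2 of 10 for class II were called. Over all tested genes 9.23% were called, 3.64% higher in cTECs and 5.59% in mTECs. Of 12 genes of class I loading only *Tap2*, a peptide transporter subunit, was called, at 124, 126 and 120.1 in cTECs and 59.9, 55.8 and 62.9 in mTECs (log2 difference 1.11, SE 0.11, adjusted p = 4.5e-06). *H2-K1* (-0.07), *H2-D1* (-0.17) and *B2m* (-0.13) differed by less than 0.2 on the log2 scale. Of 10 class II genes *H2-DMa*, a subunit of the peptide exchange factor, was higher in cTECs (log2 difference 1.10, SE 0.12, adjusted p = 8.2e-06) and *H2-Ob*, a subunit of its inhibitor, was higher in mTECs (log2 difference -1.19, SE 0.28, adjusted p = 0.0062). *Cd74*, the invariant chain, was at 6965, 7279 and 7023 in cTECs and 7696, 8048 and 8284 in mTECs, and its difference of -0.09 missed the threshold (adjusted p = 0.052). The class II transactivator *Ciita* was at 90.9, 77.2 and 84.3 and 72.6, 72.4 and 74.8 (adjusted p = 0.03).

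Of 18 transcription factors of the thymic epithelium 2 were higher in cTECs and 3 in mTECs (median 0.31). *Foxn1*, the master regulator of TEC identity, was expressed in both, at 344, 186 and 207 in cTECs and 125, 104 and 117 in mTECs (log2 difference 1.16, SE 0.12, adjusted p = 4.8e-06), with cTEC replicate 1 above the other cTECs. *Pax1*, required for thymus formation, was at 872, 588 and 664 and 172, 114 and 145 (log2 difference 2.39, SE 0.08, adjusted p = 2.7e-11). Both genes had all cTEC values above all mTEC values. Among the genes higher in mTECs were *Spib*, an ETS factor of mature mTECs, at 9, 13.3 and 18.7 and 132, 133 and 133 (log2 difference -3.20, SE 0.21, adjusted p = 3.9e-08), and *Ehf*, an epithelial ETS factor (log2 difference -1.68, SE 0.21, adjusted p = 3.2e-05). *Pax9*, *Eya1* and *Irf8* differed by less than 0.5 and were not called.

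Receptors that drive medullary maturation were called in both directions. Of 14 tested genes 4 were higher in mTECs and 1 in cTECs (median -0.56). *Tnfrsf11a* (RANK) was at 3.35, 3.06 and 5.84 in cTECs and 48.5, 44.3 and 33.7 in mTECs (log2 difference -3.03, SE 0.27, adjusted p = 1.1e-06), and its decoy *Tnfrsf11b* (osteoprotegerin) at 0.98, 1.41 and 2.05 and 12, 29.4 and 33.7 (log2 difference -3.84, SE 0.41, adjusted p = 7.2e-06). *Cd40* was at 19.6, 25.4 and 22.3 and 46.0, 78.7 and 75.1 (log2 difference -1.66, SE 0.20, adjusted p = 2.3e-05). The inhibitor *Nfkbia* was the other mTEC-high gene (log2 difference -1.18, SE 0.10, adjusted p = 4.1e-07). *Ltbr*, the lymphotoxin-β receptor, went the other way, at 140.0, 109 and 124 in cTECs and 49.9, 51.5 and 50.6 in mTECs (log2 difference 1.37, SE 0.14, adjusted p = 3.5e-06). The non-canonical subunits *Relb* (-0.57) and *Nfkb2* (-0.76) had all mTEC values above all cTEC values but differed less than 2-fold, and *Nfkb1* (0.75) had the opposite order.

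Of 13 costimulatory and checkpoint ligands 5 were higher in mTECs and 2 in cTECs. *Cd80*, a ligand of CD28, was at 0.87, 3.54 and 2.23 in cTECs and 23.2, 30 and 26.7 in mTECs (log2 difference -3.79, SE 0.52, adjusted p = 8.3e-05). *Icosl* (log2 difference -4.16, SE 0.47, adjusted p = 1.2e-05), *Cd70* (log2 difference -3.62, SE 0.87, adjusted p = 0.0068) and *Pdcd1lg2* (PD-L2, log2 difference -1.96, SE 0.31, adjusted p = 0.00029) were also higher in mTECs. *Cd274* (PD-L1) was higher in cTECs, at 112, 67.9 and 91.3 and 56.2, 30.7 and 37.3 (log2 difference 1.24, SE 0.12, adjusted p = 1.8e-06). The other cTEC-high gene of the list was *Cd83*. *Cd86* was at 0.52, 1.11 and 1.84 and 1.85, 8.65 and 4.37 and missed the threshold (adjusted p = 0.046).

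Of 21 tested WNT pathway genes 3 were higher in cTECs and 1 in mTECs, beside 3.64% and 5.59% of all tested genes (median 0.05). *Wnt4*, a ligand that TECs make, was at 329, 227 and 289 in cTECs and 122, 78.5 and 102 in mTECs (log2 difference 1.58, SE 0.07, adjusted p = 1.6e-09), *Wnt7b* at 28.2, 25.8 and 25.6 and 8.40, 8.19 and 10.3 (log2 difference 1.64, SE 0.21, adjusted p = 3.4e-05), and the feedback inhibitor *Nkd1* at 8.44, 7.67 and 6.99 and 1.04, 1.81 and 2.44 (log2 difference 2.32, SE 0.54, adjusted p = 0.0057). *Wnt10b* was higher in mTECs (log2 difference -5.01, SE 0.98, adjusted p = 0.0017). Of 22 BMP and TGF-β genes *Tgfbr2* (log2 difference 1.95, SE 0.14, adjusted p = 1.5e-07) and the co-receptor *Tgfbr3* (log2 difference 2.48, SE 0.26, adjusted p = 6.5e-06) were higher in cTECs, and *Bmp2* (log2 difference -2.45, SE 0.55, adjusted p = 0.0042) and the target gene *Id1* (log2 difference -1.07, SE 0.21, adjusted p = 0.0016) in mTECs. *Bmp4* was at 4.49, 2.57 and 6.12 in cTECs and 0, 0.88 and 0 in mTECs and missed the threshold (adjusted p = 0.042).

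**Figure D3:**
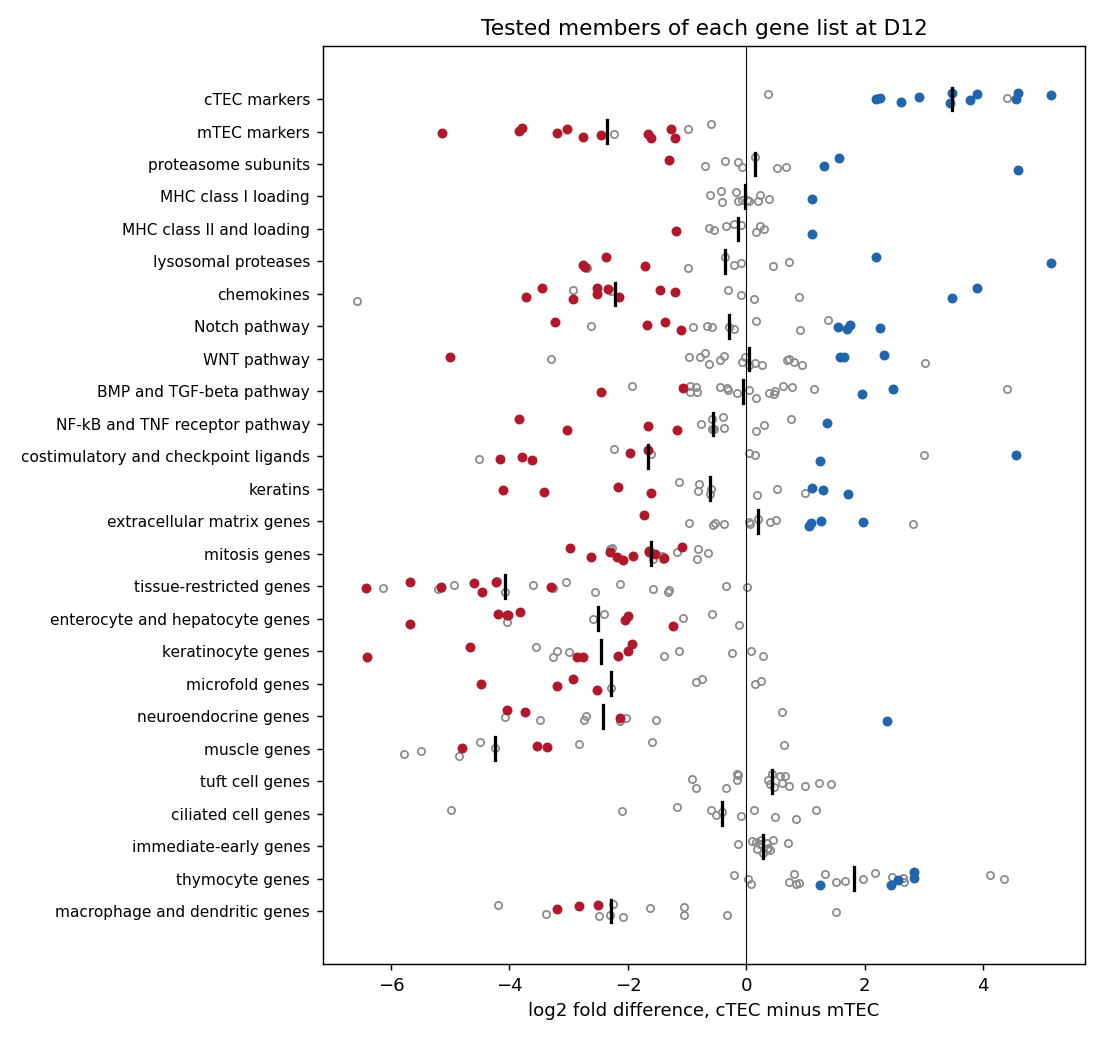
Log2 difference between cTECs and mTECs (x axis, positive when higher in cTECs) of the tested members of 26 gene lists (rows), with called genes filled in blue (higher in cTECs) or red (higher in mTECs), others as open circles, and a black bar at each list's median. The medians run from -4.25 for muscle genes to 3.48 for cTEC markers, and those of MHC genes, WNT and BMP or TGF-β genes lie within 0.15 of 0. Members with a mean under 0.5 FPKM in a cell type were tested only through their level in the other, so medians depend in part on that filter.

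Keratins were divided between the compartments. Of 15 keratin genes 3 were higher in cTECs and 4 in mTECs. The simple-epithelium pair *Krt8* and *Krt18* was at 3270.1, 3155 and 2631 and 6585, 6348 and 5464 in cTECs and at 1622, 1494 and 1336 and 2183, 1871 and 1922 in mTECs (log2 difference 1.11, SE 0.04, adjusted p = 1.1e-10 and log2 difference 1.71, SE 0.04, adjusted p = 1.1e-12). *Krt14* was at 294, 387 and 484 in cTECs and 1156, 1017 and 1122 in mTECs (log2 difference -1.61, SE 0.12, adjusted p = 2.4e-07). Its partner *Krt5* had the same order, at 1421, 1698 and 2041 and 2937, 2715 and 2693, but the difference of -0.59 was under 2-fold (adjusted p = 7.2e-05). *Krt19* was called in cTECs (log2 difference 1.29, SE 0.17, adjusted p = 5.5e-05), and *Krt1*, *Krt16* and *Krt20*, keratins of surface epithelia, in mTECs with differences of -2.17, -3.41 and -4.11.

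Of 19 tested junction genes 3 were called, all higher in mTECs. *Epcam*, the antigen that defines TECs in the sort, was at 53.0, 84.5 and 108 in cTECs and 159.9, 193 and 173 in mTECs (log2 difference -1.01, SE 0.15, adjusted p = 0.00015). *Cldn4*, a claudin of mTEC precursors, was at 10.4, 16.2 and 31.2 and 30.4, 55.7 and 69.9, with cTEC replicate 3 just above mTEC replicate 1 (log2 difference -1.27, SE 0.20, adjusted p = 0.00026), and it was not called without the replicate block (limma-voom adjusted p = 0.0119). *Tjp3* was the other (log2 difference -1.80, SE 0.22, adjusted p = 3e-05). Of 6 tested fucosyltransferase genes only *Fut1*, which makes the fucose linkage that UEA1 binds, was called, at 2.30, 4.02 and 5.30 in cTECs and 29.9, 29.7 and 45.3 in mTECs (log2 difference -3.00, SE 0.30, adjusted p = 4.4e-06). Because cells were sorted on UEA1, this difference bears on the gate itself.

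Of 15 tested matrix and matrix receptor genes 4 were higher in cTECs and 1 in mTECs. *Fn1* (fibronectin) was at 137, 137 and 116 in cTECs and 85.0, 48.9 and 77.7 in mTECs (log2 difference 1.25, SE 0.10, adjusted p = 2.8e-07), *Lamb3* at 140.0, 133 and 140.1 and 81.7, 72.6 and 75.2 (log2 difference 1.09, SE 0.10, adjusted p = 1.4e-06), and *Sparc* at 258, 283 and 235 and 143, 133 and 121 (log2 difference 1.06, SE 0.09, adjusted p = 7.9e-07). *Col4a5* completed the cTEC side (log2 difference 1.96, SE 0.41, adjusted p = 0.0028), and *Nid1* was higher in mTECs (log2 difference -1.72, SE 0.39, adjusted p = 0.0044). Of 10 tested nuclear receptor genes 3 were higher in cTECs, the progesterone receptor *Pgr* (log2 difference 1.43, SE 0.34, adjusted p = 0.0069; adjusted p = 0.0152 in limma-voom without the replicate block), the glucocorticoid receptor *Nr3c1* (log2 difference 1.38, SE 0.16, adjusted p = 1.8e-05) and the retinoic acid receptor *Rarg* (log2 difference 1.12, SE 0.16, adjusted p = 8.6e-05), and none in mTECs. *Pgr* was low in both, at 6.25, 6.70 and 3.93 and 2.30, 3.36 and 2.29, and *Nr3c1* was at 33.5, 34.8 and 31.7 and 13.5, 17.2 and 17.7.

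The tissue-restricted genes that were called were all higher in mTECs. Of 23 tested, 7 were, and the median was -4.07. A gene was tested if its mean reached 0.5 FPKM in either cell type. Members under that mean in cTECs thus entered only through their mTEC level, and the median depends in part on this filter. *Csn2* (β-casein) was the most abundant, at 7.61, 24.4 and 22.6 in cTECs and 231, 443 and 337 in mTECs (log2 difference -4.23, SE 0.27, adjusted p = 3.8e-08), in females that were not nursing. *Apoa4*, an apolipoprotein of the gut, was at 0.29, 2.32 and 0.95 and 44.2, 37.9 and 42.8 (log2 difference -5.68, SE 0.76, adjusted p = 6e-05), and *Crp*, a liver acute-phase protein, at 0.46, 1.53 and 2.41 and 31.6, 33.4 and 34.1 (log2 difference -4.47, SE 0.64, adjusted p = 0.00011). *Gcg*, the glucagon precursor, was at 0, 0.15 and 0.37 in cTECs and 9.31, 13.5 and 17.4 in mTECs (log2 difference -6.41, SE 1.45, adjusted p = 0.0046). *Apoa1*, *Apob* and *Pcp4* were also called, and cTEC values of all 7 stood below every mTEC value. The list's summed FPKM was 28.5 to 61.6 in cTECs and 477 to 726 in mTECs. The other 16 tested members had no call, among them *Ins2* (5.02, 2.14 and 0 in mTECs, listed at 0 in cTECs) and *Tff3* (14.8, 15.5 and 0 in mTECs), whose levels differed widely between mTEC libraries.

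Of 15 genes in a list of *Aire*, *Fezf2* and partners of AIRE, 4 (*Aire*, *Fezf2*, *Sirt1* and *Top2a*) were higher in mTECs and 1 in cTECs. *Aire* and *Fezf2* are also among the defining markers above. *Sirt1*, the deacetylase that activates AIRE, was at 7.04, 8.40 and 8.52 in cTECs and 27.6, 57.6 and 50.8 in mTECs (log2 difference -2.33, SE 0.20, adjusted p = 7.6e-07). *Top2a*, which is also a gene of dividing cells, was at 5.79, 8.19 and 7.19 and 49.4, 67.4 and 51.6 (log2 difference -2.62, SE 0.19, adjusted p = 1.8e-07). *Chd4*, *Top1* and *Prkdc* differed by less than 0.4 and were not called.

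Genes of the cell types that mature mTECs can resemble differed in how they divided. Of 14 tested enterocyte and hepatocyte genes 8 were higher in mTECs and none in cTECs (median -2.50), among them the intestinal factor *Cdx1*, at 2.29, 6.96 and 4.20 and 54.6, 75.0 and 84.3 (log2 difference -4.19, SE 0.33, adjusted p = 3.2e-07). Of 16 tested keratinocyte genes 7 were higher in mTECs, among them the desmosomal gene *Dsg1a*, at 0.61, 1.52 and 2.37 and 33.4, 45.7 and 41.5 (log2 difference -4.66, SE 0.35, adjusted p = 2.1e-07), and *Krtdap*, at 17.9, 11.8 and 15.2 and 180.5, 112 and 123 (log2 difference -2.86, SE 0.38, adjusted p = 5.4e-05). Of 9 tested genes of microfold cells, which carry antigen across the gut epithelium, 4 were higher in mTECs, with *Prg2* at 1.05, 5.12 and 1.95 and 42.1, 49.2 and 48.3 (log2 difference -4.48, SE 0.71, adjusted p = 0.00028). Of 11 tested muscle genes *Des* (log2 difference -3.54, SE 0.38, adjusted p = 7.3e-06), *Ttn* (log2 difference -3.37, SE 0.40, adjusted p = 1.8e-05) and *Myh3* (log2 difference -4.80, SE 1.07, adjusted p = 0.0042) were higher in mTECs.

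Tuft and ciliated cell genes had no call in limma-voom. Over all 18796 tested genes, 6783 had an unadjusted p under 0.05, edgeR called 1562 and DESeq2 3182. Of the 17 tuft cell genes, which include the tuft master factor *Pou2f3* at 4.62, 7.61 and 9.37 and 15.5, 12.6 and 12.8, 2 had an unadjusted p under 0.05, edgeR called 0 and DESeq2 called 0, and the median was 0.44. *Trpm5*, the tuft cell taste channel, was at 12, 15.3 and 11.4 in cTECs and 10.3, 7.80 and 7.70 in mTECs. Of the 11 ciliated cell genes 3 had an unadjusted p under 0.05, edgeR called 0 and DESeq2 1, and the median was -0.41. Among 12 tested neuroendocrine genes *Insm1* (log2 difference -4.04, SE 0.48, adjusted p = 1.9e-05), *Ret* and *Scg5* were higher in mTECs, and *Chga* (chromogranin A) in cTECs. *Chga* was at 898, 125 and 812 in cTECs and 198, 42.6 and 128 in mTECs (log2 difference 2.38, SE 0.14, adjusted p = 1.5e-08). Replicate 2 was the lowest in both cell types, and cTEC replicate 2 lay below mTEC replicates 1 and 3. In the list of secretory and ionocyte genes *Muc1* was higher in mTECs (log2 difference -2.24, SE 0.32, adjusted p = 0.00011) and *Bpifa1* in cTECs, at 61.7, 180.2 and 263 and 54.6, 48.3 and 64.5 (log2 difference 1.71, SE 0.24, adjusted p = 8.6e-05), with cTEC replicate 1 inside the range of the mTECs. Without the replicate block *Bpifa1* was not called (limma-voom adjusted p = 0.0778).

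Called genes of dividing cells were all higher in mTECs. Of 20 tested, 11 were called, 16 had every mTEC value above every cTEC value, and the median was -1.61. Over all tested genes 5.59% were called higher in mTECs and 20.7% had every mTEC value above every cTEC value. *Mki67* was at 3.88, 6.96 and 5.16 in cTECs and 26.7, 32.2 and 22.2 in mTECs (log2 difference -2.30, SE 0.16, adjusted p = 1.1e-07), *Cdk1* at 4.57, 6.87 and 6.40 and 33.7, 59.3 and 59.8 (log2 difference -2.98, SE 0.34, adjusted p = 1.3e-05), and the replication factor *Mcm5* at 9.48, 11.3 and 9.70 and 32.3, 32.0 and 26.2 (log2 difference -1.38, SE 0.20, adjusted p = 0.00016). The summed FPKM of the list was 117 to 162 in cTECs and 388 to 558 in mTECs.

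Genes of other cell types were also read in these libraries. Of 22 thymocyte genes 5 were higher in cTECs and none in mTECs, and 13 had all cTEC values above all mTEC values (median 1.81). Over all tested genes 3.64% were called higher in cTECs and 14.5% had all cTEC values above all mTEC values. *Cd8b1* was at 25.1, 27.8 and 30.7 in cTECs and 6.98, 6.60 and 1.26 in mTECs (log2 difference 2.44, SE 0.46, adjusted p = 0.0012), *Dntt* at 18.6, 24.9 and 21.4 and 4.26, 3.44 and 4.49 (log2 difference 2.57, SE 0.35, adjusted p = 8.2e-05), and *Rag1* at 7.20, 9.22 and 11.1 and 1.19, 1.78 and 0.79 (log2 difference 2.82, SE 0.37, adjusted p = 4.8e-05), while *Ptprc* (CD45), the antigen excluded in the sort, was at 2.25, 1.71 and 3.67 and 1.67, 0.71 and 0.53. The list summed to 214 to 255 FPKM in cTECs and 89.6 to 115 in mTECs. Of 14 tested macrophage and dendritic cell genes 3 were higher in mTECs (*Lyz2*, *C1qb* and *Fcer1g*), with *Lyz2* at 5.71, 11 and 12.5 and 47.6, 86.9 and 90.3, sums of 27.3 to 35.1 and 116 to 192 FPKM, *Csf1r* at most 3.21 in any library and *Clec9a* listed at 0 in all 6. Of 12 tested fibroblast genes *Dcn* was higher in cTECs, at 254, 316 and 192 and 85.8, 71.2 and 82.5 (log2 difference 1.76, SE 0.14, adjusted p = 4.1e-07), and *Col1a1*, *Col6a1*, *Col6a2* and *Fbn1* in mTECs, with sums of 421 to 565 and 773 to 896.5 FPKM and *Pdgfra* at most 0.56. Of 6 tested endothelial genes *Flt1* and *Vwf* were higher in mTECs, sums were 3.84 to 5.97 and 17.2 to 24.6 FPKM, and *Cdh5*, *Tie1* and *Emcn* were listed at 0 in all cTECs. Of 6 tested erythroid genes *Slc4a1* was higher in mTECs (sums 0.86 to 3.92 and 30.8 to 51.9). Of 7 tested B cell genes none was called, 5 had an unadjusted p under 0.05, edgeR called 0 and DESeq2 4. Over all 18796 tested genes these numbers were 6783 for the unadjusted p, 1562 for edgeR and 3182 for DESeq2. The part of such cells in the differences above was not tested.

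Immediate-early genes, which respond to tissue handling, were not called in limma-voom for any of 13 members, and the list's median difference was 0.28. Of the 13 genes 8 had an unadjusted p under 0.05, and edgeR called 0 and DESeq2 0. Over all 18796 tested genes the numbers were 6783, 1562 and 3182, respectively. *Fos* was at 1056, 655 and 1189 in cTECs and 1234, 605 and 1042 in mTECs. Replicate 2 was the lowest of the 3 for 11 of the 13 genes in cTECs and for 10 in mTECs.

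The called genes were mostly protein-coding. Of 15701 tested protein-coding genes 4.29% were higher in cTECs and 6.46% in mTECs, of 1539 long noncoding genes 0.52% and 1.49%, and of 1249 pseudogenes 0.08% and 0.80%. The part of expression level in these shares was not tested. Among the 1050 mTEC-high genes 21.5% had another mTEC-high gene as a direct neighbour among tested genes along the chromosome, against 10.7% of all tested genes, and among the 684 cTEC-high genes 17.1% had a cTEC-high neighbour, against 7.05%. Paralogs in tandem, whose reads the authors' counting may share, are part of both counts.

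The number of genes detected asked whether promiscuous expression widened the mTEC transcriptome. With every library drawn down to 6470030 counts, genes with 3 or more counts numbered 16001, 16311 and 16699 in cTECs and 15560, 19030 and 16456 in mTECs. mTEC replicate 2 was the highest and mTEC replicate 1 the lowest of the 6, and the groups overlapped. The means were 16337 ± 350 and 17015 ± 1801 (SD, n = 3 each), and the difference of 678 genes was smaller than the spread between mTEC samples (two-sided exact permutation test, p = 0.8, where 3 against 3 cannot go below 0.1). Without mTEC replicate 2 the difference was -329.0 genes. At 10 or more counts the order changed, to 13274, 13615 and 13855 in cTECs and 15017, 15547 and 15745 in mTECs, with all mTEC values above all cTEC values (difference 1855 genes; exact permutation p = 0.1, the smallest possible). At 1 or more counts the means were 18771 ± 1088 and 17961 ± 2529 (exact permutation p = 0.7). Between 1 and 10 counts as the minimum, the number of genes went from 16080 to 15017 in mTEC replicate 1 and from 16968 to 15745 in mTEC replicate 3, but from 20836 to 15547 in mTEC replicate 2. The order of the groups thus turned with the minimum, and the part of the differing share of low counts in it was not tested.

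**Figure D4:**
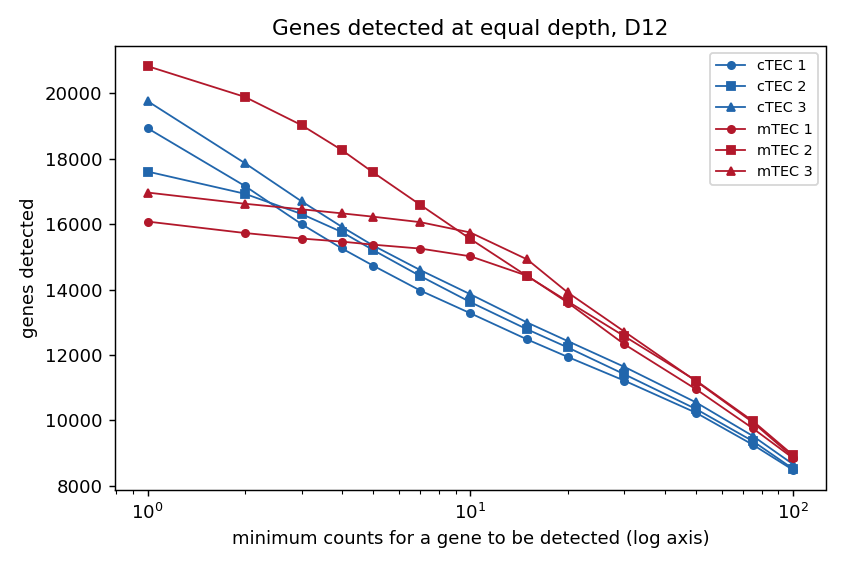
Number of genes (y axis) with at least the given number of counts (x axis, log) in each D12 library after drawing to 6470030 counts, cTECs in blue and mTECs in red. The cTEC curves run together, mTEC replicate 2 lies on top up to 7 counts, mTEC replicates 1 and 3 fall least up to 10 counts, and from 10 to 100 counts all mTEC curves lie above all cTEC curves.

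Whether the divide between the compartments at D12 differed from that of other states was tested as a contrast of contrasts, without a block, on 18 samples and 21769 genes. Against D-2, the late pregnancy state, the difference between cTECs and mTECs was shifted toward cTECs at D12 for 23 genes (0.106% of those tested) and toward mTECs for 0 genes, with 1820 genes at an unadjusted p under 0.05. In the shift toward mTECs, limma-voom and edgeR called 0 and DESeq2 10. For all 23 genes the mean cTEC level was higher at D12 than at D-2, and for 22 of them the mean of cTECs moved more between the times than the mean of mTECs did. The mTEC mean was lower at D12 than at D-2 for 9 of the 23. All 23 had been picked for a shift toward cTECs in these same samples, which favours such counts. At D-2 the cTEC mean was below the mTEC mean for 8 of the 23. Without mTEC replicate 2 of D12 no gene was called, and without any other single library of D12 or D-2 between 3 (without mTEC D-2 replicate 1) and 22 were.

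Among the called genes with a mean of at least 5 FPKM in 1 of the groups, the 5 with the largest shift were *Prss16*, *Ccl25*, *Dll4*, *Tbata* and *Fgf14*. *Ccl25* had means of 393 ± 147 in cTECs and 322 ± 115 in mTECs at D-2 and of 1797 ± 833 and 379.8 ± 70.9 in NPC, against 3643 ± 223 and 357 ± 83.0 at D12 (all ± SD, n = 3). The mTEC means of the 3 states lay within 1 SD of each other, and the difference between cell types grew by 3.37 on the log2 scale (SE 0.45; limma-voom, adjusted p = 0.00071). *Dll4* was at 3.84 ± 1.32 and 5.89 ± 1.61 at D-2, 22.0 ± 3.31 and 7.74 ± 0.41 in NPC and 33.1 ± 2.81 and 7.77 ± 2.66 at D12 (shift 3.31, adjusted p = 0.0063 with limma-voom). *Prss16* was at 221 ± 54.7 and 60.4 ± 25.4 at D-2 and 1549.9 ± 425 and 151 ± 20.1 in NPC, against 2735 ± 286 and 100.8 ± 68.0 at D12 (shift 3.49, limma-voom adjusted p = 0.00071). *Tbata*, a thymus gene that restrains TEC growth (shift 3.25), and *Fgf14*, an intracellular member of the FGF family (shift 2.95), followed. Among the other 18 were the fatty acid synthase gene *Fasn* (2.17), the fatty acid carrier *Fabp5* (2.00), and the cathepsin gene *Ctsl* (1.75) together with the cathepsin inhibitor gene *Cstb* (1.89).

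Other defining markers did not pass the threshold in this contrast. *Psmb11* had a shift of 4.09 (adjusted p = 0.031), *Cxcl12* of 1.90 (0.011) and *Foxn1* of 1.28 (0.45). The mTEC markers *Fezf2* (-0.14), *Ccl21a* (-0.09) and *Aire* (-1.75) had adjusted p values of 0.95, 0.97 and 0.8.

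Against NPC no gene was called in either direction (0.0% of 21769). At an unadjusted p under 0.05 there were 1592 genes, edgeR called 0 and DESeq2 4. Both contrasts share the D12 samples. *Prss16* had a shift of 1.87 against NPC, *Tbata* of 1.60, *Ccl25* of 1.41, *Dll4* of 1.04 and *Fgf14* of 0.86, and for the 23 genes above the lowest adjusted p was 0.499. Without mTEC NPC replicate 4, 1 gene was called toward cTECs and 40 toward mTECs.

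**Figure D5:**
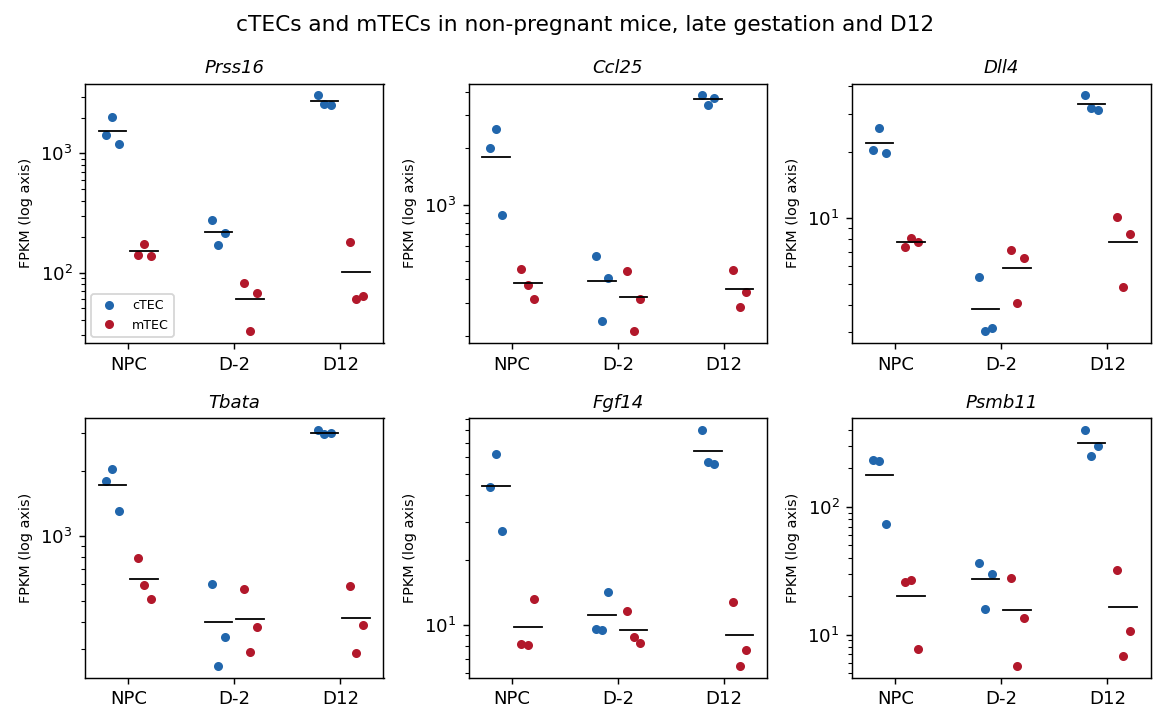
FPKM (log axis) of 6 genes in each sample of non-pregnant controls (NPC), day 18 of gestation (D-2) and D12, cTECs in blue and mTECs in red, with black lines at the means of 3. In *Prss16*, *Ccl25*, *Dll4*, *Tbata* and *Fgf14* the cTEC points are lowest at D-2 and highest at D12 on average, and the mTEC means stay within a narrower range.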

How the data were processed

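The authors prepared stranded poly(A) RNA-seq libraries from sorted TECs, trimmed the reads with Trimmomatic 0.35, aligned them to GRCm38 with STAR 2.5.1b and quantified genes with RSEM 1.2.28. The deposited tables hold, for 50600 genes per sample, an expected count (an estimate that need not be whole, because reads shared between genes are divided) and an FPKM value, both by the authors. The annotation release and the strand setting of the counting are not given in the sources used here. Identifiers were named with GENCODE M21, which matched 50376 of them.

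Expected counts were rounded to whole numbers. Genes whose mean reached 0.5 FPKM in cTECs or in mTECs were fitted with limma 3.58.1 (voom, TMM scaling by edgeR 4.0.16, R 4.3.3), with cell type and the replicate number as a block. Calls needed a 2-fold difference and a p, adjusted by Benjamini and Hochberg's method, no higher than 0.01. The contrasts with NPC and D-2 used 18 samples and no block, because the numbers of cTEC and mTEC samples do not coincide in NPC. The titles number the D12 samples 1 to 3 in each cell type, and that equal numbers mean the same mouse is not stated. The deviations of same-numbered samples from their group means had Pearson's r of -0.0472 to 0.0506 over the tested genes, so no pairing was seen across the genome. Some genes did share an order by number. Replicate 2 was the lowest of both cell types for most immediate-early genes and for *Chga*. Replicate 3 was the highest of both for *Scgb1b27*, *Scgb2b27* and *Wfdc12*. The fit without the block is given with the alternatives. Alternatives were edgeR's quasi-likelihood test, DESeq2 1.42.0, other scalings, filters and thresholds, limma-trend on log-scaled FPKM with a pseudocount of 0.5 or 0.1, drawing to equal depth, and leaving out samples. On simulated data for the D12 comparison (18796 genes), limma-voom recovered 50.5% of 200 genes changed 4-fold, and 7.34% of its calls were false. For edgeR these values were 61.5% and 13.4%, and for DESeq2 63% and 20.3%. The changed genes were drawn only from those above a minimum expected count, and no replicate effect was simulated, so the values do not cover low genes. Medians of lists are over tested members. A member with a mean under 0.5 FPKM in a cell type entered them only through its level in the other.

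Library depth was 6470058 to 41988256 counts, so low genes were less precise in the shallow libraries, and p-values measure the spread between these samples only. Named genes were the 6 defining markers, members of the gene lists, the 12 called genes per direction with the largest difference (mean of at least 10 FPKM in the higher cell type, no overlap), and the 5 called genes with the largest shift against D-2 (none was called against NPC). Other genes named from the contrast with D-2, the runs of neighbouring genes and the single-library genes were chosen after their values were seen. The members and lists were chosen with earlier results of these data known. No column of the tables was left out. A few genes counted in the lists are not reported by name here.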

Additional observations from a re-analysis of the deposited data

Results flagged for a closer look

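For 9 of the genes named above, the difference between cTECs and mTECs at D12 differed from that at D-2 by the test of the difference itself (limma-voom contrast of contrasts, 18 samples, adjusted p of at most 0.01 and at least 2-fold). The shift on the log2 scale was 3.49 for *Prss16*, 3.37 for *Ccl25*, 3.31 for *Dll4*, 3.25 for *Tbata* and 2.95 for *Fgf14*. It was 2.17 for *Fasn*, 2.00 for *Fabp5*, 1.89 for *Cstb* and 1.75 for *Ctsl*. None of the 9 was called without mTEC replicate 2 of D12.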

How the results depend on the processing

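The D12 comparison gave 684 genes higher in cTECs and 1050 in mTECs. DESeq2 gave 1039 and 2143, drawing to the smallest library 407 and 419, limma-trend 243 and 595 on log2(FPKM + 0.5) and 219 and 498 on log2(FPKM + 0.1), and limma's treat against a fold of 2 gave 138 and 247. An adjusted p of at most 0.05 gave 1923 in mTECs. Leaving out a replicate number gave 352 to 740 and 438 to 988, the lowest without replicate 2. Of 1394 calls shared with the fit without replicate 3, 1393 had the same direction. Without the replicate block 860 and 1192 genes were called, 1582 of them shared with the 1734 of the blocked fit. Relative to the 39.45% of calls in cTECs, the share ran from 29.0% (limma-trend, 0.5) to 49.3% (equal depth). For 182 named genes, 148 of them called, there were 3092 values under alternatives. Of these 2716 kept direction and call, 344 lost the call, 14 gained it and 18 changed sign, all of the last in genes near 0 that were not called. *Chd4* turned from 0.03 to -0.03 (DESeq2), -0.04 (size factors), -0.02 (equal depth), -0.01 (filterByExpr), -0.07 (no TMM) and -0.16 (both limma-trend fits). *Irf8* turned from 0.06 to -0.02 (DESeq2), -0.01 (size factors), -0.04 (no TMM), -0.08 (both limma-trend fits) and 0.00 (sample weights), and without single replicate numbers it was -0.03 to 0.15. On leaving out a replicate number, *Csf1r* was -0.93 to 0.02, *Hes1* -0.03 to 0.29 and *Prkdc* -0.38 to 0.12, each changing sign without replicate 3. The NPC contrast gave 0 and 0, 2 and 2 with DESeq2, and 0 to 1 and 0 to 40 without single libraries, the highest without mTEC NPC replicate 4. The D-2 contrast gave 23 and 0. It gave 43 and 10 with DESeq2, 65 and 2 at 0.05, 51 and 4 with sample weights, 13 toward cTECs without TMM, 10 without a filter and 0 to 22 without single libraries. The difference in detected genes (mTECs minus cTECs) was 678.3, reversed to -809.7 at 1 or more counts and to -329.0 without mTEC D12 replicate 2, and ran from -329.0 to 1406 without single libraries. The causes were not tested. The depth of 6470058 counts in cTEC replicate 2 limits what low genes can show.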

Other observations

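A set of secretory genes was found in a single library and was chosen after its values were seen. *Scgb1b27* and *Scgb2b27*, which encode secretoglobins (androgen-binding proteins of lacrimal and salivary glands), stood at 2654 and 1718 FPKM in cTEC replicate 3 and at no more than 0.24 in cTEC replicates 1 and 2. In mTEC replicate 3 they were at 26.2 and 16.1 and in the other mTECs at 0. *Wfdc12*, a protease inhibitor, was at 516 in cTEC replicate 3, *Car6*, the carbonic anhydrase of saliva, at 463, *Pip*, a protein of saliva and tears, at 444 and *Mup5*, a major urinary protein, at 213, against at most 1.56 in the other cTEC libraries. Outside D12 their highest values in the series were 9.70, 6.71, 4.54, 15.3, 0.05 and 8.62 in the same order. *Scgb1b27*, *Scgb2b27*, *Wfdc12* and *Car6* were among the 684 genes called higher in cTECs. Without replicate 3 of both cell types, limma-voom did not call the first 3 (adjusted p = 0.62, 0.92 and 0.83), and it called *Car6* higher in mTECs (log2 difference -7.35, adjusted p = 0.0066). *Car6* was the only called gene shared by both fits that changed direction.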
